A study of Mus musculus with 2 samples.

Results

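Brain endothelial cells are the lining of the blood vessels, and in the ventrolateral periaqueductal gray (vlPAG) of the midbrain they made up a small share of the nuclei captured. Nuclei with over 500 unique molecular identifiers (UMIs, each a counted RNA molecule) and under 20% of UMIs in mitochondrial genes were kept. Members were kept nuclei in which Flt1, Slco1a4, Cldn5, Pecam1, Ly6c1, Tek, Emcn, Mecom and Ptprb together held at least 4 UMIs and at least 0.2% of all UMIs, with at least 2 of the 9 genes detected. This rule found 293 of 13822 kept nuclei. The tissue came from wild-type C57/BL6J mice that were 8 weeks old when the diets began and that received a normal food diet (NFD) or a high-fat diet (HFD) for 7 weeks. Tissue of 18 mice was pooled into 1 library per diet, so the libraries are not replicated, and mouse, batch and diet cannot be told apart. All values below describe these 2 libraries, no test between diets was possible, and intervals are 95% intervals that cover counting error only.

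The endothelium of the brain forms the blood-brain barrier. Its cells are sealed by tight junctions, take up few vesicles, carry glucose, amino acids and hormones across by dedicated carriers, and return many drugs to the blood through efflux pumps. Wnt signals from neighbouring brain cells maintain this state, and pericytes and smooth muscle cells, together called mural cells, wrap the same vessels from outside. Along the vessel, arterial, capillary and venous endothelium express different genes.

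The NFD library held 201 members among 7500 kept nuclei, a share of 2.68% (Clopper-Pearson interval 2.33 to 3.07). The HFD library held 92 members among 6322, a share of 1.46% (1.17 to 1.78). The counting intervals of these shares did not overlap. Among members with under 1% of UMIs in a list of neuronal genes the shares were 1.92% (1.62 to 2.26) and 1.34% (1.08 to 1.66), and without members that met the thresholds for any other cell type they were 0.827% (0.634 to 1.06) and 0.569% (0.399 to 0.787), with overlapping intervals in both cases. The intervals also overlapped over 1000 UMIs and after thinning to 1000 UMIs. They did not overlap under a stricter or a looser rule, under the rule without Flt1 or under 5% mitochondrial UMIs. Nor did they overlap without members that carried mural cell RNA or with granule neurons left out of the denominator. Fewer endothelial cells in the tissue and fewer endothelial nuclei in the capture cannot be told apart. Members held 1.35% of the 41042988 UMIs of kept NFD nuclei and 0.710% of the 54587419 UMIs of kept HFD nuclei. The libraries shared 13 cell barcodes, and 0 of the members carried one of them.

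Members were shallow nuclei. The median was 1355 UMIs in NFD (506 to 23956) and 2321.5 in HFD (557 to 20588), against 4588 and 7400.5 in all other nuclei. The 9 genes contributed a median of 20 UMIs per NFD member and 45 per HFD member, or 1.65% and 1.81% of a nucleus. Depth moved with diet in members and in the other nuclei alike. Near the threshold the libraries differed. Nuclei with the 9 genes at 0.15 to 0.2% of UMIs, just outside the rule, numbered 15 in NFD and 2 in HFD, and those at 0.2 to 0.25%, just inside it, numbered 9 and 2. Exactly 4 UMIs of the 9 genes were held by 10 NFD members, some of them also at 0.2 to 0.25%, and by 0 HFD members. A count of 3 was held by 11 NFD nuclei and 0 HFD nuclei, which were left out. The lowest HFD member held 8.

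RNA of other cell types was present in many members. A list of 12 neuronal genes reached 1% of UMIs or more in 57 of 201 NFD members (28.4%, 22.2 to 35.1) and in 7 of 92 HFD members (7.61%, 3.11 to 15.1). The 12 neuronal genes summed to 9240 CPM (UMIs per 1000000 UMIs of the same nuclei) in NFD members and 3471 in HFD members, against 30502 and 30188 in the other nuclei, and Slc32a1, which loads GABA into vesicles, was at 0 in NFD members. Among the remaining members, 63 in NFD (31.3%) and 38 in HFD (41.3%) carried mural RNA by the same thresholds as the endothelial rule. The 11 mural genes summed to 5096 CPM in NFD and 5601 in HFD members, and 28.1 and 25.8 in the other nuclei, with the smooth muscle actin Acta2 at 0 in HFD members. The last 81 NFD members (40.3%) and 47 HFD members (51.1%) met neither threshold, although they were not free of this RNA. In them the mural list summed to 1801 CPM in NFD and 1793 in HFD, and the neuronal list to 2319 and 1382. The members with mural RNA were deeper, with a median of 3334 UMIs in NFD and 5139.5 in HFD against 912 and 1328 in members that met neither threshold. Members with mural RNA supplied 49.9% of the summed NFD UMIs and 63.9% of the summed HFD UMIs. The source of this RNA was not tested, and no doublet caller was run. Results that involve the neuronal share are therefore given also for the 144 NFD and 85 HFD members under 1% neuronal UMIs, a split set after the data were seen.

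**Figure D1:**
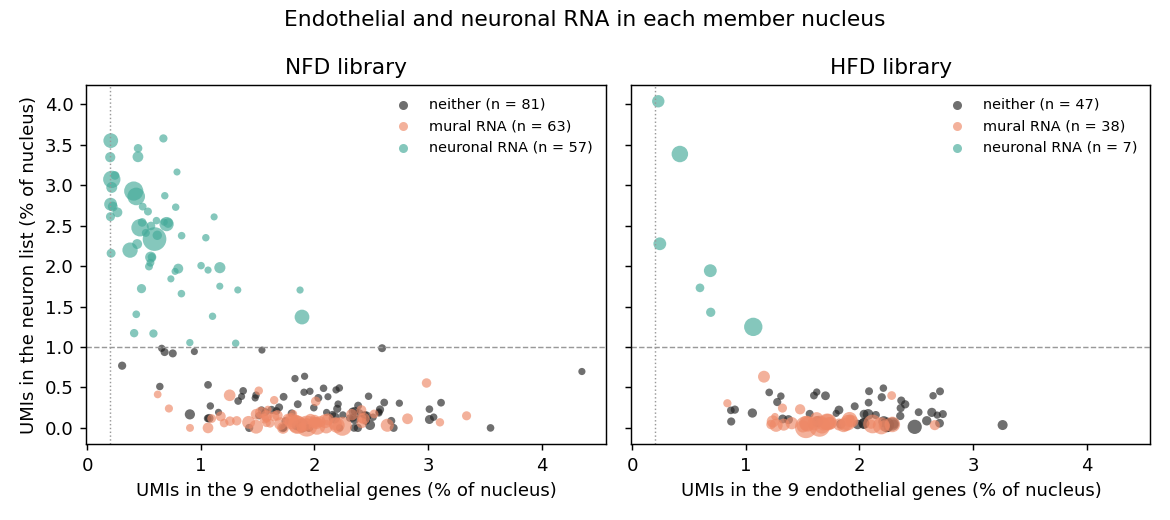
Each point is 1 member nucleus, with its share of UMIs in the 9 endothelial genes on the horizontal axis and in the neuron list on the vertical axis (both percent), coloured by class and with point area by total UMIs. The dotted line is the 0.2% threshold of the rule and the dashed line is 1% neuronal UMIs, above which lie 57 NFD members and 7 HFD members.

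Other cell types contributed less. Microglial C1qb, Tmem119 and Csf1r were at 0 in the members of both libraries, but the other 6 of 9 listed genes had UMIs. The microglial list summed to 81.1 CPM in NFD and 92.8 in HFD members, against 123 and 105 in the other nuclei. Fibroblast Col1a1 was also at 0, but the other 7 of 8 listed genes had UMIs. The fibroblast list summed to 63.1 and 137 CPM, against 81.6 and 80.4 in the other nuclei. Its 2 measured genes exceeded the other nuclei at least 4-fold in both libraries. For either type 0 members met the thresholds. The astrocyte list met the thresholds in 5 NFD members and 1 HFD member, at 510 and 168 CPM over 8 genes, and Aqp4, the astrocyte water channel, was at 0 in HFD members. The oligodendrocyte list met them in 3 NFD members and 0 HFD members (440 and 312 CPM over 8 genes), and the ependymal list in 1 NFD member and 0 HFD members. Haemoglobin RNA came from few nuclei. A single NFD nucleus held 274 of the 290 Hbb-bs UMIs and 138 of the 161 Hba-a1 UMIs in NFD members, and because the haemoglobin copies are near-identical their split is uncertain.

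Members were chosen by the UMIs of the 9 genes of the rule, so the values of these genes are a description. Flt1, a receptor for VEGF and placental growth factor, was found in 96.0% of NFD members and 98.9% of HFD members. It was found in 1.68% and 0.688% of nuclei that met the same thresholds on the neuron list, which had median depths of 4838 and 7734 UMIs. At a common 1000 UMIs per nucleus Flt1 was found in 89.3% and 98.8% of members and in 0.534% and 0.0517% of neurons. Flt1 gave 2090 UMIs in NFD members and 1919 in HFD members, or 3766 and 4948 CPM. Slco1a4, a carrier of organic anions and thyroid hormone, gave 1761 and 1366 UMIs. Cldn5, the claudin that seals the barrier, gave 654 and 527. All of the 9 genes exceeded the other nuclei at least 4-fold in both libraries, from a log2 ratio of 6.05 for the angiopoietin receptor Tek in NFD up to 12.39 for Flt1 in HFD. The further endothelial markers Cdh5, Kdr, Erg and Tie1, which the rule did not use, also exceeded the other nuclei at least 4-fold in both libraries. The secreted marker Egfl7 gave only 10 and 6 UMIs.

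The promoters of the marker genes were read to look for the core to which ETS factors, the transcription factors of endothelial identity, bind. RefSeq promoter windows (GRCm38.p6, from 250 bases before to 50 bases after the start) were available for 7 of the 9 genes, with Pecam1 and Ptprb unmatched. The letters AGGAAG, or CTTCCT on the other strand, were in a window of 4 of the 7 genes (57.1%), namely Emcn, Flt1, Ly6c1 and Slco1a4, against 38.4% of all 27025 genes with a window. The match is a description of letters and no evidence of a site. The windows of Flt1 (chr5:147725962-147726261, minus strand) and Slco1a4 (chr6:141856171-141856470, minus strand) are shown because these genes gave the most UMIs of the rule, with the ETS letters in capitals.
Flt1: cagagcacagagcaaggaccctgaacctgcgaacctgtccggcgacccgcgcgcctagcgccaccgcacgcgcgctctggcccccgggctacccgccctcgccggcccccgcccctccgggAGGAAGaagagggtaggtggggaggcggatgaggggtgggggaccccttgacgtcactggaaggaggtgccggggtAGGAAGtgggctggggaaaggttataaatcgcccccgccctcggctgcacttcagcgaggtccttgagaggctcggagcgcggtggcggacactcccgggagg
Slco1a4: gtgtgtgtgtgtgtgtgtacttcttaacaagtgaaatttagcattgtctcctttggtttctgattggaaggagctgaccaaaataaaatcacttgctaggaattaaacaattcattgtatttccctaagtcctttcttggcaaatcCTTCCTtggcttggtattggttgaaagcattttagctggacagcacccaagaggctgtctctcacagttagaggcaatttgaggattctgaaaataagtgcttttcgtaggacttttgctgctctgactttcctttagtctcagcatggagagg

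Between diets, 7729 genes with at least 20 UMIs over both libraries' members were measured, at a median log2 HFD to NFD ratio of 0.05. Of these genes 14.3% were at least 1.5-fold higher in HFD members and 17.2% at least 1.5-fold lower, which is the background for each count below. Among members under 1% neuronal UMIs, 6277 genes were measured at a median of 0.03, with 13.1% higher and 12.2% lower. CPM is a share of all UMIs, so the neuronal UMIs of NFD members are part of the total by which vessel genes were scaled. The members under 1% neuronal UMIs are called the second set below. Within the 9 genes, ratios ran from -0.46 for the surface antigen Ly6c1 (interval -0.59 to -0.33) to 0.63 for the adhesion molecule Pecam1 (0.38 to 0.88). Flt1 measured 0.39 (0.30 to 0.48) in all members and 0.12 in the second set. Cldn5 and Slco1a4 turned sign between the 2 sets, from 0.21 to -0.07 and from 0.15 to -0.13. Mecom, a transcription factor of arterial endothelium and blood stem cells, kept its sign (0.61 and 0.31), as did Ly6c1 (-0.46 and -0.73), although Ly6c1 measured 0.02 without the members that carried mural RNA and has a close paralog, Ly6c2, that could share its reads. In the other nuclei all 9 genes were lower in HFD, at log2 ratios from -2.09 for Slco1a4 to -0.07 for Mecom.

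**Figure D2:**
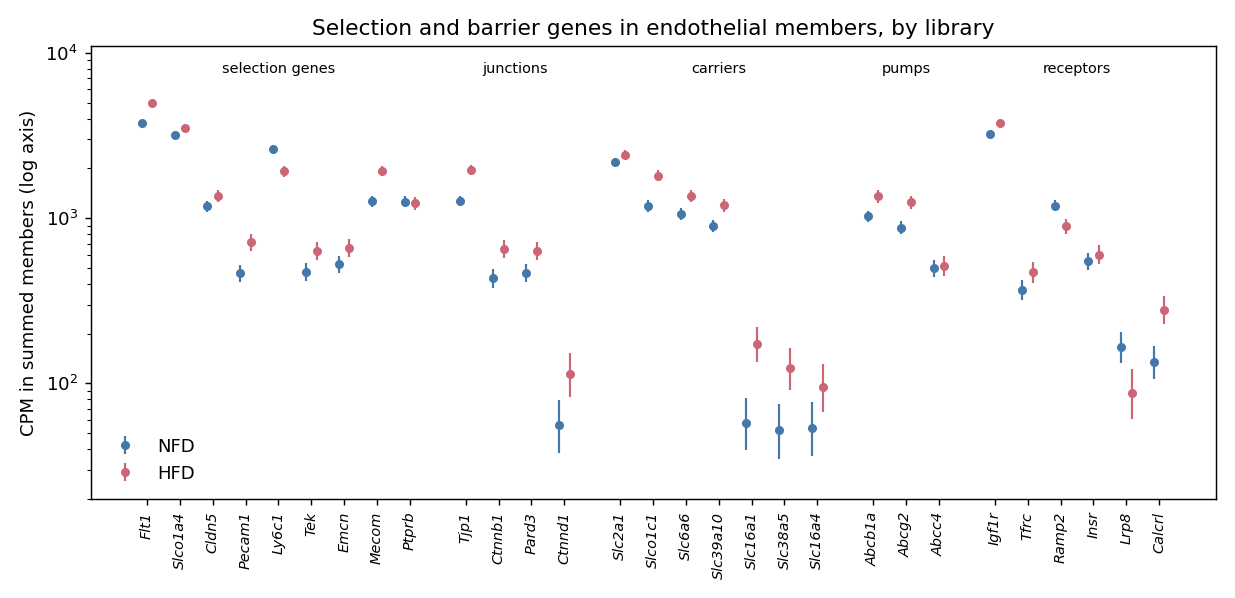
Points are CPM summed over the 201 NFD and 92 HFD members for the selection genes and for genes of the junction, carrier, pump and receptor lists, on a log axis, and bars are exact Poisson 95% intervals. Most genes lay slightly higher in HFD, Ly6c1, Ramp2 and Lrp8 lay lower, and Slc16a1 stood at 57.7 against 173 CPM.

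Wider endothelial identity was present in both libraries. Of 37 further endothelial genes 36 were measured, and 33 of them exceeded the other nuclei at least 4-fold in both libraries, against 20.9% of all measured genes. Between diets their median log2 ratio was 0.25 in all members and -0.07 under 1% neuronal UMIs, with 7 genes past 1.5-fold higher and 2 lower in all members. Fli1, an ETS factor, gave 229 UMIs in NFD and 328 in HFD, a log2 ratio of 1.04 (0.79 to 1.29) and 0.72 without the neuronal members. Tie1, a partner of the angiopoietin receptor, gave 79 and 104 UMIs, at 0.91 and 0.66. Erg, another ETS factor of the endothelium, lay near 0 in all members (-0.03, with 164 and 112 UMIs) and at -0.42 in the second set. Robo4, which stabilises vessels, was lower in HFD in both sets (98 and 44 UMIs, -0.64 with an interval of -1.19 to -0.11, and -1.01). Adgrl4 and Adgrf5, adhesion receptors of endothelium, measured 0.13 and 0.16 in all members, with intervals that included 0.

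Junction genes passed 1.5-fold about as often as all genes did. Of 24 junction genes 18 reached 20 UMIs, 17 of these lay above 0, and 3 passed 1.5-fold higher, near the background of 14.3%, and 0 lower, with a median of 0.46 and 0.25 in the members under 1% neuronal UMIs. Tjp1, the scaffold ZO-1 under the tight junction, gave 706 UMIs in NFD and 761 in HFD, or 1272 and 1962 CPM, at 0.63 (0.48 to 0.78) and 0.46. Ctnnd1, the p120 catenin that holds cadherin at the membrane, gave 31 and 44 UMIs, at 1.02 (0.33 to 1.73) and 0.87. Ocln, the occludin of the tight junction, measured 0.47 (0.15 to 0.79), and Cdh5, the vascular cadherin, 0.56 (0.22 to 0.89). Cldn5, a rule gene that is also counted in this list, measured 0.21 (0.04 to 0.37) and took either sign across the settings tried. It measured -0.67 (-1.11 to -0.23) in members that met neither the neuronal nor the mural threshold. In those with mural RNA it measured 0.07 (-0.12 to 0.27), and in those with neuronal RNA 0.35 (-0.33 to 0.99). Cldn1 and Cldn3 gave 0 UMIs in both libraries, and Cldn12 gave 9 and 6, so none of these could be compared at this depth. Without the members that met another cell type's thresholds, the list's median was 0.07, beside 0.06 over all 1708 genes measured in that set.

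Carriers of nutrients and hormones mostly lay above 0 in all members. Of 33 SLC genes 27 were measured, 24 lay above 0, and 9 passed 1.5-fold higher and 1 lower, with a median of 0.44, of 0.19 in the second set and of 0.08 without members that met another type's thresholds. In the second set 4 of the 26 measured passed 1.5-fold higher and 2 lower, near that set's background of 13.1% higher and 12.2% lower. In the other nuclei the same list had a median of -0.16. Slc2a1, the glucose carrier GLUT1, gave 1209 UMIs in 156 NFD members and 936 in 78 HFD members, or 2178 and 2414 CPM. Its log2 ratio was 0.15 (0.02 to 0.27) in all members and -0.13 in the members under 1% neuronal UMIs, so its direction depended on the set. Slc16a1, the carrier of lactate, pyruvate and ketone bodies, gave 32 UMIs in 24 NFD members and 67 in 32 HFD members. That was 57.7 and 173 CPM, a log2 ratio of 1.58 (0.96 to 2.24) and 1.23 in the second set. It measured 0.48 (-1.06 to 2.11) with 7 and 10 UMIs in members that met neither the neuronal nor the mural threshold, and 1.43 (0.69 to 2.22) with 22 and 53 in those with mural RNA. In neurons it measured -0.16 (-0.43 to 0.12) and in astrocytes 0.75 (-0.20 to 1.79). Its share of members with a UMI was 11.9% in NFD and 34.8% in HFD at full depth but 3.82% and 7.32% at 1000 UMIs per nucleus.

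Of the thyroid hormone and organic anion carriers, Slco1c1, Slc22a8 and Slco2b1 lay above 0 in both sets. Slco1a4, a rule gene, turned sign, from 0.15 (0.05 to 0.25) in all members to -0.13 (-0.24 to -0.02) in the second set. Slco1c1, which takes up thyroxine, gave 657 and 699 UMIs at 0.61 (0.45 to 0.76) and 0.26 in the second set. Slc22a8, an organic anion carrier, gave 132 and 157 at 0.77 and 0.45, and Slco2b1 gave 93 and 111 at 0.77 and 0.44. Of the amino acid carriers, Slc38a5, a glutamine carrier, gave 29 and 48 UMIs at 1.24 (0.55 to 1.96) and 0.79. It measured -0.03 (-1.64 to 1.58) with 8 and 8 UMIs in members that met neither the neuronal nor the mural threshold, and 1.05 (0.23 to 1.91) with 20 and 37 in those with mural RNA. Slc7a1, for cationic amino acids, gave 226 and 252 at 0.67 and 0.41. The 2 chains of the large neutral amino acid carrier differed in sign. Slc7a5, the light chain, measured 0.43 (0.12 to 0.75), and Slc3a2, the heavy chain, gave 220 and 120 UMIs at -0.36 (-0.69 to -0.03). Slc30a1, a zinc exporter, measured 0.78 and Slc39a10, a zinc importer, 0.42. Mfsd2a, which carries docosahexaenoic acid as a lysolipid and keeps vesicle traffic low, gave 126 and 111 UMIs at 0.33 (-0.05 to 0.71), a difference not detectable at this depth.

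Efflux pumps differed little. Of 10 ABC genes 7 were measured, all 7 lay above 0, and 0 passed 1.5-fold in either direction, with a median of 0.15 and 0.16 in the second set. Abcb1a, P-glycoprotein, gave 568 and 525 UMIs, or 1023 and 1354 CPM, at 0.40 (0.23 to 0.58) and 0.11. Abcg2, the breast cancer resistance protein, gave 486 and 483 at 0.51 (0.32 to 0.69) and 0.19. Abcc4 measured 0.05 with 276 and 200 UMIs.

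Receptors that carry or sense blood proteins were divided in direction. Of 20 genes 16 were measured, 8 on each side of 0, with 1 past 1.5-fold higher and 1 lower and a median of 0.03. Igf1r, the receptor of insulin-like growth factor 1, gave 1790 and 1467 UMIs at 0.23 (0.13 to 0.33) and -0.05 in the second set. Insr, the insulin receptor, measured 0.13 (-0.12 to 0.38) with 304 and 233 UMIs, and Tfrc, the transferrin receptor, 0.35 (0.06 to 0.65) with 204 and 182. The 2 proteins of the adrenomedullin receptor differed in sign. Calcrl, the receptor, gave 75 and 108 UMIs at 1.04 (0.60 to 1.49), and Ramp2, its partner protein, 659 and 347 at -0.41 (-0.60 to -0.22). Both kept their sign in the second set, at 0.74 and -0.71. Lrp8, a receptor of reelin and apolipoprotein E, gave 92 and 34 UMIs at -0.92 (-1.53 to -0.34) and -1.06. Lepr, the leptin receptor, gave 25 and 16 UMIs at -0.13 (-1.13 to 0.84), too few to show a difference.

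Lipid genes were thinly covered. Of 22 genes of fatty acid and lipid handling 11 were measured, with 3 past 1.5-fold higher and 0 lower. The fatty acid translocase Cd36 gave 0 and 2 UMIs and Fabp4, Gpihbp1 and Lipg gave 0 in both libraries, so uptake of fat from lipoproteins was not measurable here. Cpt1a, which admits fatty acids to mitochondrial oxidation, gave 32 and 50 UMIs at 1.16 (0.49 to 1.85) and 0.86 in the second set. Pltp, a phospholipid transfer protein, gave 848 and 808 UMIs at 0.45 (0.31 to 0.59).

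Genes of cholesterol and fatty acid synthesis lay the other way. Of 24 genes 11 were measured, 1 lay above 0, and 4 passed 1.5-fold lower and 0 higher, at a median of -0.38. Acaca, acetyl-CoA carboxylase, gave 77 and 23 UMIs at -1.23 (-1.97 to -0.54). None of the 11 exceeded the other nuclei 4-fold. Neuronal RNA moved with this result. In the members under 1% neuronal UMIs only 5 of the genes reached 20 UMIs, their median was -0.01, and Acaca measured -0.28.

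Genes of vesicle traffic across the endothelium mostly lay above 0 in all members. Of 16 genes 14 were measured, 13 lay above 0, and 3 passed 1.5-fold higher and 0 lower, with a median of 0.38 and 0.15 in the second set. Cav1, the coat protein of caveolae, gave 102 and 121 UMIs at 0.76 (0.37 to 1.16) and 0.57. Clic5, which links membrane to actin, gave 139 and 169 at 0.80 and 0.48. Plvap, the diaphragm protein of leaky vessels, gave 1 UMI in NFD and 2 in HFD.

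Wnt signalling genes, which maintain the barrier, lay above 0 for 15 of the 17 measured of 20, with 5 past 1.5-fold higher and 0 lower. Their median was 0.48 in all members, 0.15 in the second set, 0.01 without members that met another type's thresholds and -0.13 in the other nuclei. Fzd4, the receptor of norrin, gave 56 and 75 UMIs at 0.94 (0.42 to 1.46) and 0.68. Fzd6 gave 114 and 135 at 0.76 and 0.55. The transcription factors at the end of the pathway measured 1.34 for Tcf7l1 (17 and 30 UMIs), 1.05 for Tcf7l2 (45 and 65) and 0.58 for Lef1 (403 and 422). The feedback inhibitors Axin2, Apcdd1, Nkd1 and Notum, which are targets of the pathway, measured 0.48, 0.12, 0.21 and 0.09, and the interval of each included 0. Znrf3, which removes frizzled receptors, measured 0.89 (0.44 to 1.35).

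Other signalling groups were mixed. Of the 14 measured of 19 genes of VEGF, angiopoietin and sphingosine phosphate signalling, 2 passed 1.5-fold higher and 0 lower, at a median of 0.26 and -0.08 in the second set. Kdr, the main VEGF receptor, gave 133 and 89 UMIs at -0.06 (-0.47 to 0.34), and S1pr1, which tightens junctions, 185 and 197 at 0.61 (0.31 to 0.91). Notch genes had 4 past 1.5-fold higher and 2 lower of the 13 measured of 15 in all members, at a median of 0.35. In the second set the median was 0.06, and 0 of the 12 measured passed 1.5-fold higher and 2 lower. In all members Jag1, a Notch ligand, measured 0.99 (0.22 to 1.77) and the target Hey2 -0.90 (-2.54 to 0.53). Of the 18 measured of 20 genes of TGF-beta and BMP signalling, 1 passed in each direction. Smad6, an inhibitor of BMP signalling, gave 41 and 11 UMIs at -1.38 (-2.49 to -0.39) and -2.18 in the second set, and Smad5, a mediator, 23 and 38 at 1.24 (0.46 to 2.06). The BMP targets Id1 (598 and 400 UMIs) and Id3 (407 and 273) both measured -0.06.

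RNA of the capillary, arterial and venous lists was found among the members. Of 12 capillary genes all 12 were measured and exceeded the other nuclei 4-fold in both libraries. At least 2 UMIs of the capillary list were found in 76.6% of NFD members and 94.6% of HFD members. The arterial list reached 2 UMIs in 36.8% (30.1 to 43.9) and 54.3% (43.6 to 64.8), and the venous list in 34.8% (28.3 to 41.8) and 65.2% (54.6 to 74.9). Both arterial and venous genes reached it in 20.9% and 35.9%, so the lists did not divide the members into separate kinds. These shares depend on depth, which was greater in HFD. At 1000 UMIs per nucleus, with 131 NFD and 82 HFD members deep enough, the arterial shares were 16.03% (10.2 to 23.5) and 23.2% (14.6 to 33.8), whose intervals overlapped. The venous shares were 12.2% (7.15 to 19.1) and 28.0% (18.7 to 39.1), whose intervals also overlapped in part.

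By summed UMIs the venous list stood at 843 CPM in NFD and 1478 in HFD, and the arterial list at 1074 and 812. Of the 16 venous genes 10 were measured, 9 lay above 0, and 7 passed 1.5-fold higher and 1 lower, at a median of 1.09 in all members, 0.69 in the second set and 0.07 in the other nuclei. Il1r1, the interleukin 1 receptor of venous endothelium, gave 62 UMIs in 25 NFD members and 127 in 34 HFD members, or 112 and 327 CPM. Its ratio was 1.55 (1.10 to 2.01) and 1.37 in the second set, and it measured 1.12 in members that met neither the neuronal nor the mural threshold and 1.58 in members with mural RNA. In neurons it measured 0.42 (0.18 to 0.66). Tmem252 gave 30 and 45 UMIs at 1.10, and Nr2f2, the factor that specifies veins, 59 and 69 at 0.74 (0.22 to 1.27).

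Single nuclei decided other venous values. Lcn2, a siderophore-binding protein, gave 64 UMIs in NFD members, 61 of them in 1 nucleus, and 0 in HFD members. Vcam1, a leukocyte adhesion molecule, gave 32 and 49 UMIs at 1.13 (0.46 to 1.82), but 18 of the NFD UMIs were in 1 nucleus and 36 of the HFD UMIs in 2. With each nucleus weighted equally Vcam1 measured -0.33, and among members that met neither threshold it gave 23 and 6 UMIs at -1.97. Without all members that met another cell type's thresholds the venous median was -0.21, so the direction of the venous list turned without those members (62 in NFD and 36 in HFD remained).

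**Figure D3:**
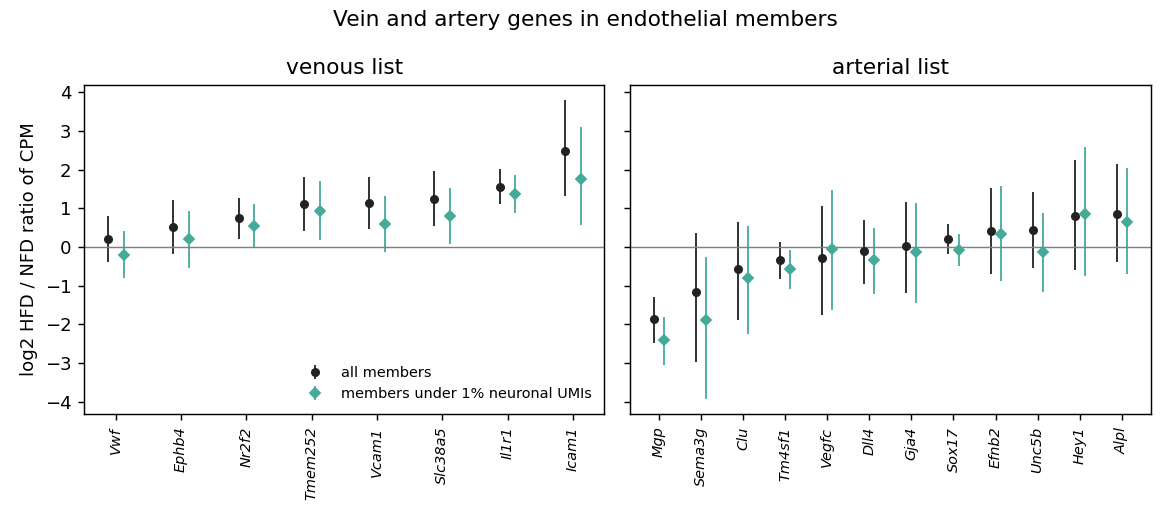
Points are log2 HFD to NFD ratios of CPM for 8 of the venous genes and 12 arterial genes in all members (circles) and in members under 1% neuronal UMIs (diamonds), and bars are 95% counting intervals. The venous genes shown lay at 0.21 to 2.47 in all members, and of the arterial genes Mgp stood apart at -1.87.

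The arterial list was divided, with 6 of the 12 measured of 18 on each side of 0 and 2 past 1.5-fold in each direction. Its median was -0.05 in all members and -0.23 in the second set. There 10 genes were measured, 2 above and 8 below 0, with 1 past 1.5-fold higher and 3 lower. The list's median was -0.26 without members that met another type's thresholds and 0.47 without the members that carried mural RNA. Mgp, which blocks BMP signals and calcification in the arterial wall, gave 157 UMIs in 38 NFD members and 30 in 11 HFD members, or 283 and 77.4 CPM. Its ratio was -1.87 (-2.49 to -1.30) and -2.40 in the second set, and the highest single nucleus held 29 of the NFD UMIs. It was lower in the other nuclei as well, at -4.01. Among members that met neither the neuronal nor the mural threshold, Mgp gave 80 UMIs in NFD and 0 in HFD. Eln, the elastin of arteries, also measured lower, with 58 UMIs in 13 NFD members and 4 in 3 HFD members at -3.34 (-5.26 to -1.91). Sox17, a factor of arterial endothelium, gave 126 and 102 UMIs at 0.21 (-0.18 to 0.60), and Dll4, an arterial Notch ligand, 34 and 22 at -0.11.

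Inflammation and leukocyte adhesion genes differed one by one. Of 37 genes 25 were measured, with 8 past 1.5-fold higher and 1 lower, at a median of 0.32, of 0.09 in the second set and of -0.44 without members that met another type's thresholds. Icam1, which arrests leukocytes, gave 8 UMIs in 6 NFD members and 31 in 10 HFD members at 2.47 (1.32 to 3.80), and 1.75 in the second set. In 2 nuclei lay 16 of the 31 HFD UMIs. Members that met neither the neuronal nor the mural threshold gave 4 and 3 UMIs at -0.45 (-3.22 to 2.12), and those with mural RNA 4 and 22 at 2.62 (1.06 to 4.62). At 1000 UMIs per nucleus it was found in 2.29% and 4.88% of members. Ifit1, an interferon target, gave 32 and 52 UMIs at 1.22 (0.55 to 1.90) and 0.87, whereas its neighbours Ifit2 and Ifit3 measured 0.65 and -0.26 with intervals that included 0. Relb gave 8 and 17 UMIs at 1.60, Il6st, the signalling chain of interleukin 6 receptors, 38 and 54 at 1.02, and Nfkbia, the inhibitor of NF-kB, 226 and 181 at 0.20 (-0.09 to 0.49). The selectin Sele gave 0 UMIs in both libraries and Selp 1 and 0. Class I antigen genes H2-K1, H2-D1 and B2m measured 0.32, 0.18 and 0.06.

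Most heat shock chaperones measured at least 1.5-fold higher in HFD. Of 20 genes 19 were measured, 18 lay above 0, and 17 passed 1.5-fold higher in HFD and 0 lower. Their median was 1.01 in all members and 1.27 in the members under 1% neuronal UMIs, where 15 of 19 passed 1.5-fold, and 0.64 without members that met another type's thresholds. The list was higher in HFD in other cells as well, with medians of 0.61 in neurons, 0.65 in astrocytes, 0.55 in microglia and 0.65 in oligodendrocytes. Hspa1a and Hspa1b, the stress-inducible HSP70 genes, are near-identical neighbours on chromosome 17 (chr17:34969359-34972156 and chr17:34956429-34959238, RefSeq, GRCm38.p6), so their split is uncertain. Hspa1a gave 11 UMIs in NFD members and 155 in HFD members, or 19.8 and 400 CPM, a log2 ratio of 4.33 (3.45 to 5.37). Hspa1b gave 5 and 117, or 9.01 and 302 CPM, at 5.07 (3.80 to 6.71). Without the single highest nucleus in each library the ratios were 5.04 and 5.65, so no single nucleus decided them.

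HSP70 RNA in HFD was found mostly in members with mural RNA. At least 1 UMI of either gene was found in 6 of 201 NFD members (2.99%, 1.10 to 6.38) and in 46 of 92 HFD members (50%, 39.4 to 60.6), against 0.630% and 3.03% of the other nuclei. Of the 46 HFD members with a UMI, 33 were among the 38 with mural RNA, 9 among the 47 that met neither threshold and 4 among the 7 with neuronal RNA. In the members that met neither threshold, 2 nuclei held 23 of the 32 HFD UMIs of either gene, and 1 nucleus held 5 of the 6 NFD UMIs. Depth moved with this share, as the HFD members with a UMI had a median of 5120.5 UMIs and those without 1548.5. At 1000 UMIs per nucleus Hspa1a was found in 0.763% of NFD and 18.3% of HFD members, and in 0.0610% and 0.224% of neurons. In neurons Hspa1a stood at 0.880 and 2.63 CPM, at 1.58 (1.03 to 2.16), and in astrocytes at 0.274 and 3.60 CPM, at 3.71 (1.08 to 9.08). The log2 interval of the members lay above that of the neurons for Hspa1a, Hspa1b, Hsph1, Hsp90aa1, Stip1, Hspa8, Dnaja1 and Hsp90ab1. It lay above that of the astrocytes only for Hsp90aa1, Hspa8 and Hsp90ab1. For Hspa1a, Hspa1b, Hsph1, Stip1 and Dnaja1 the intervals of members and astrocytes overlapped. These differences were not tested. Within the members Hspa1a measured 2.36 in those that met neither the neuronal nor the mural threshold (4 and 21 UMIs) and 4.52 in those with mural RNA (6 and 123 UMIs).

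The chaperones that work with HSP70 and HSP90 had the same sign. Hspa8, the constitutive HSP70, gave 105 and 206 UMIs at 1.49 (1.14 to 1.84). Hsp90aa1 gave 32 and 92 at 2.04 (1.45 to 2.67), and Hsp90ab1, its constitutive relative, 435 and 552 at 0.86 (0.68 to 1.05). Among their helpers, Hsph1, which exchanges nucleotide on HSP70, gave 21 and 69 UMIs at 2.23 (1.51 to 3.01). Stip1, which bridges HSP70 to HSP90, measured 1.62, and the HSP90 activator Ahsa1 measured 1.77. The J-domain proteins Dnajb1 and Dnaja1 measured 1.74 and 1.37. Hspb1, a small chaperone, was found at 786 and 1202 CPM and exceeded the other nuclei by log2 ratios of 9.23 and 9.16, at 0.61 (0.42 to 0.80) between diets. Exceptions were Hspa4 at 0.01 and Dnajb4 at -0.38 (-1.43 to 0.61). In members that met neither the neuronal nor the mural threshold, the intervals of Hspa8, Hsp90aa1 and Hsph1 included 0. There Hspa8 measured 0.61 (-0.30 to 1.55), Hsp90aa1 1.08 (-0.41 to 2.77) and Hsph1 0.78 (-0.58 to 2.24). In members with mural RNA the same genes measured 1.44, 2.06 and 3.30, with intervals above 0.

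**Figure D4:**
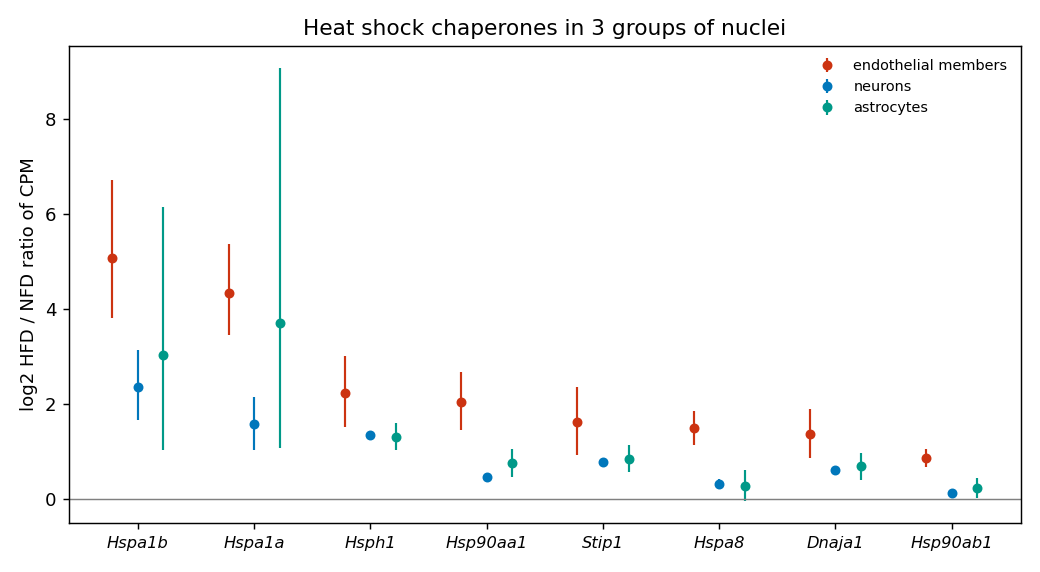
Points are log2 HFD to NFD ratios of CPM for 8 chaperone genes in endothelial members, neurons and astrocytes, and bars are 95% counting intervals. All 3 cell groups lay above 0 for Hspa1b, Hspa1a, Hsph1, Hsp90aa1, Stip1, Dnaja1 and Hsp90ab1, and the members measured 4.33 for Hspa1a against 1.58 in neurons.

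Promoter windows were available for 16 of the 20 chaperone genes, with Hspa8, Hsp90aa1, Hsp90ab1 and Cryab unmatched. The letters GAANNTTC, which read the same on both strands and form the core of a heat shock element, were in a window of 10 of the 16 genes (62.5%), against 9.04% of all 27025 genes. The windows of Hspd1 and Hspe1 overlap, so their letters count for both. Those of Hspa1a (chr17:34972107-34972406, minus strand), Hspa1b (chr17:34959189-34959488, minus strand) and Hspb1 (chr5:135887669-135887968, plus strand) are shown with the element in capitals, the first 2 because their RNA had the largest ratios and the last because of its level over the other nuclei. The Hspa1a and Hspa1b windows were the same at 296 of 300 bases (98.7%), and both had the element at -104 from the start. The search was chosen after the data were seen, and a match says only that the letters are there.
Hspa1a: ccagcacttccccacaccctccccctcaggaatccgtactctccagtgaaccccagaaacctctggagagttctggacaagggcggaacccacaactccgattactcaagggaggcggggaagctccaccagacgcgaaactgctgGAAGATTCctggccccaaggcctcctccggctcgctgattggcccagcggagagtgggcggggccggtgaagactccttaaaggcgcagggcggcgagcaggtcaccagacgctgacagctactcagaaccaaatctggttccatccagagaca
Hspa1b: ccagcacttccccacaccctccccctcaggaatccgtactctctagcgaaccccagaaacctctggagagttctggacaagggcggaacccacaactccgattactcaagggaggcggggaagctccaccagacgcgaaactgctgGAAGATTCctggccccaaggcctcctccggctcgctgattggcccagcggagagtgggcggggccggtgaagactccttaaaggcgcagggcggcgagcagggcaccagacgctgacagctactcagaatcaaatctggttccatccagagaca
Hspb1: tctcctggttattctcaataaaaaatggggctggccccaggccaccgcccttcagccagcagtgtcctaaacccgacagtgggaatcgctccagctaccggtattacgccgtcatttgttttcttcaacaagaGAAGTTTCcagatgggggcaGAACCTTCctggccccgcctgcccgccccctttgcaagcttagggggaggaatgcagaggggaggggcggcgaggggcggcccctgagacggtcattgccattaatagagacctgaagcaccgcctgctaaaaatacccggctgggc

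Targets of the glucocorticoid receptor and of stress signalling lay above 0 throughout. Of 16 genes 15 were measured, all 15 lay above 0, and 11 passed 1.5-fold higher and 0 lower. The median was 0.88 in all members, 0.61 in the members under 1% neuronal UMIs, 0.44 without members that met another type's thresholds and 0.25 in the other nuclei. By type it was 0.30 in neurons, 0.10 in astrocytes and -0.35 in oligodendrocytes. Zbtb16, a transcription factor induced by glucocorticoids, gave 135 UMIs in 72 NFD members and 185 in 71 HFD members, at 0.97 (0.64 to 1.30) and 0.90 in the second set. At 1000 UMIs per nucleus it was found in 19.8% and 46.3% of members, and in 4.41% and 5.61% of neurons. Tsc22d3, which encodes the glucocorticoid-induced leucine zipper, gave 102 and 135 UMIs at 0.92 (0.54 to 1.31) and 0.54. In neurons it measured 0.43 (0.23 to 0.64) and in astrocytes -0.39 (-0.66 to -0.13). Per1, a clock gene with a glucocorticoid response element, gave 31 and 54 UMIs at 1.32 (0.65 to 2.00), and Fkbp5, a chaperone that restrains the receptor, 28 and 36 at 0.88 (0.13 to 1.65). Nr3c1, the receptor itself, gave 130 and 146 at 0.68 (0.33 to 1.04), and Foxo3 gave 34 and 56 at 1.24 (0.60 to 1.90).

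Immediate early and shear stress genes had a median of 0.79, of 0.54 in the second set and of 0.40 without members that met another type's thresholds, with 11 of the 14 measured of 18 past 1.5-fold higher and 0 lower. Jun gave 55 and 114 UMIs at 1.57 (1.09 to 2.06), and Dusp1, which switches off MAP kinases, 61 and 102 at 1.26 (0.79 to 1.74). Egr1 gave 3 and 31 UMIs at 3.89 (2.21 to 6.24), with the HFD UMIs in 7 nuclei. Klf2 and Klf4, which blood flow induces in endothelium, gave 419 and 465 UMIs at 0.67 (0.47 to 0.86) and 123 and 149 at 0.79 (0.44 to 1.15). Junb lay near 0 at -0.04 (-0.96 to 0.85). In the other nuclei the list's median was 0.18, and in astrocytes it was 0.61.

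Basement membrane and vascular tone genes had few differences. Of the 17 measured of 19 basement membrane genes 0 passed 1.5-fold higher and 1 lower, at a median of 0.32 and 0.08 in the second set, with Col4a1 and Col4a2, the collagens of the sheet, at 0.34 and 0.21. Of the 10 measured of 22 genes of vascular tone and coagulation, 1 passed in each direction. Nos3, which makes nitric oxide, gave 88 and 91 UMIs at 0.57 (0.13 to 1.0), Plat, the tissue plasminogen activator, 108 and 118 at 0.64 (0.26 to 1.03), and Vwf, von Willebrand factor, 57 and 46 at 0.21 (-0.39 to 0.79). Endothelin 1 (Edn1) gave 10 and 6 UMIs.

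**Figure D5:**
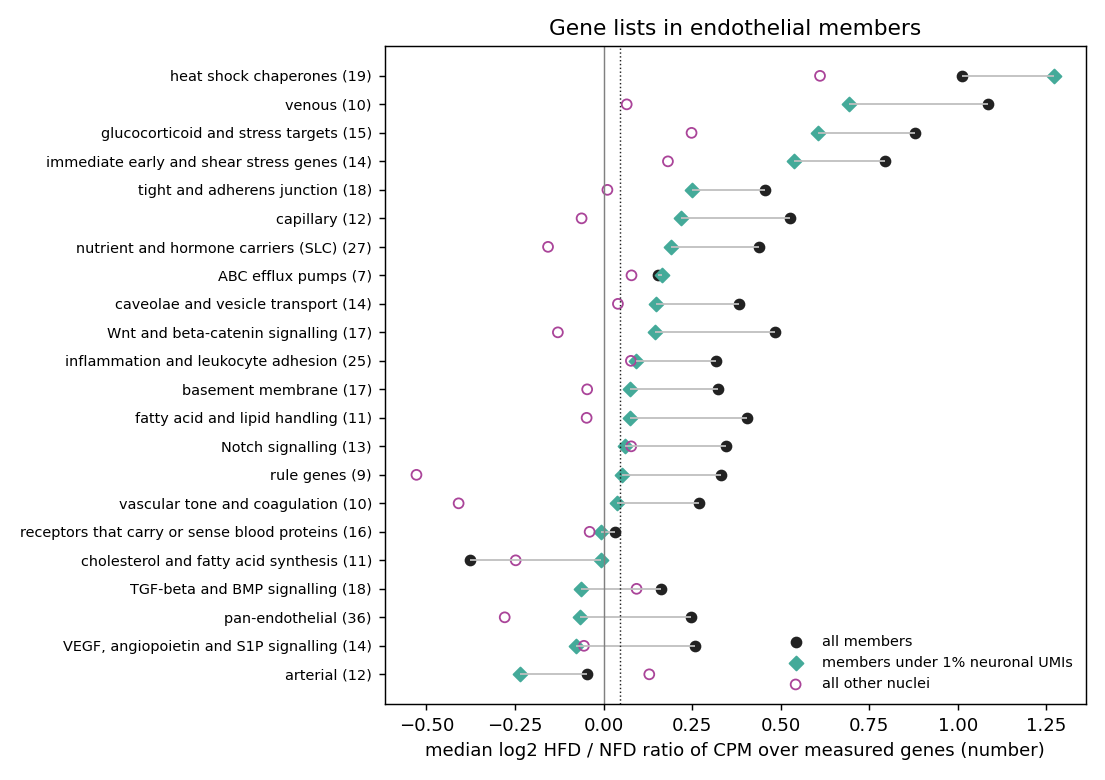
Points are the median log2 HFD to NFD ratio over the measured genes of each list (number in brackets) in all members, in members under 1% neuronal UMIs and in all other nuclei, and the dotted line is the median of all 7729 genes in members (0.05). Heat shock chaperones, venous genes, glucocorticoid and stress targets and immediate early genes lie furthest to the right, at 0.79 to 1.09 in all members.

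Chaperones also led the extremes over all genes. Of the 10 genes most above 0 with at least 50 UMIs, 5 were chaperones of the list, namely Hspa1b, Hspa1a, Hsph1, Hsp90aa1 and Stip1. Ahsa2, a relative of Ahsa1, gave 16 and 44 UMIs at 1.98 (1.12 to 2.90). P4ha1, which hydroxylates collagen, gave 34 and 78 at 1.72 (1.12 to 2.34). Nampt, the rate-limiting enzyme of NAD salvage, gave 54 and 116 UMIs at 1.62 (1.14 to 2.11) and 1.41 in the second set, while in neurons it measured 0.02 (-0.10 to 0.14) and in astrocytes -0.25 (-0.65 to 0.17). Ptgds, prostaglandin D synthase, gave 9 and 109 UMIs, but 108 of the HFD UMIs were in 2 nuclei. The 10 genes most below 0 were led by Lcn2. Besides Eln they held 8 genes that the other nuclei had at higher CPM than the members, Cntn4, Alk, Sox2ot, Sgcd, Pdzrn4, Pcdh11x, Gm28928 and Gm28905, of which Cntn4, a neuronal adhesion molecule, measured -3.75 with 193 and 10 UMIs and -1.48 in the members under 1% neuronal UMIs.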

How the data were processed

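Nuclei of the vlPAG were isolated in Nuclei EZ Lysis buffer, captured with 10x Genomics chemistry and sequenced as 1 pooled library per diet. For each gene and barcode the deposited files give UMI counts as whole numbers, which the authors made with bcl2fastq 5.01 and Cell Ranger (4.0.0 per the file headers) on GRCm38, with Seurat 3.1.1 for their own analysis. Whether UMIs of introns are included is not given in the sources used. The sample labels gave the diet of each library.

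Counts were read as deposited, filtered at over 500 UMIs and under 20% mitochondrial UMIs, and members were chosen by the rule given above. UMIs of the members were summed per library and scaled to CPM, with an exact Poisson interval for each. Their ratios had exact conditional binomial intervals and shares had Clopper-Pearson intervals, all at 95%. Genes needed at least 20 UMIs over both libraries' members, and "higher" or "lower" counts used 1.5-fold between diets and 4-fold over other nuclei. Shares were also taken with each nucleus thinned to 1000 UMIs. The computation of the interval was tested on simulated data. Python 3.11.15, numpy 2.4.6, scipy 1.17.1, pandas 2.3.3 and matplotlib 3.10.9 were used. Neurons, astrocytes and the other types were nuclei that met the same thresholds on their own lists and not the endothelial rule.

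The members and the gene lists were chosen with earlier results of these data known. The genes named were the 9 rule genes, up to 4 genes of each list by ratio and up to 6 by level, 15 leading genes outside the lists with at least 100 UMIs, the 10 genes most above and the 10 most below 0, and markers of other cell types. Further list members were named for their role after their values were seen, and some genes are not reported here. The alternatives were a stricter and a looser rule, the rule without Flt1, other mitochondrial and UMI thresholds, members with other types' markers left out, thinning, equal weight per nucleus, another scale, a minimum of 50 UMIs per gene, neurons as the comparison, granule neurons left out of the denominator and 3 UMIs for zonation. Those on neuronal RNA, mural RNA and the single highest nucleus, the thinned zonation, the classes of members and the heat shock element were chosen after seeing the data. No p-value was computed, since each diet has 1 library.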

Additional observations from a re-analysis of the deposited data

How the results depend on the processing

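Of 55 genes recomputed in every setting, 13 turned sign in at least 1 setting, 8 of them genes whose interval excluded 0, with values given here, and the others Vwf, Insr, Scd2, Eng and Mfsd2a. Of 21 list medians 8 turned, the venous one and 7 within 1.5-fold of 0 (further endothelial genes, receptors, VEGF, Notch, TGF-beta, arterial and inflammation). The endothelial share in NFD was 2.04% under the stricter rule (at least 8 UMIs, 0.5% and 3 genes), 3.21% under the looser one (3 UMIs and 0.1%), 1.88% over 1000 UMIs and 1.74% after thinning to 1000 UMIs. Chosen after seeing the data, leaving out members with 1% or more neuronal UMIs gave 1.92% (1.34% in HFD), and leaving out those with mural RNA gave 1.75% in NFD and 0.838% in HFD. Leaving out members with any other cell type's markers left 0.827% and 0.569% (62 and 36 nuclei). That setting left 305 genes at least 1.5-fold higher in HFD and 237 lower, thinning 506 and 446, and a minimum of 50 UMIs 507 and 546, while the lower count was 764 under 1% neuronal UMIs and 848 without mural RNA.

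Without other types' markers the medians were 0.072 for junctions, 0.079 for carriers and -0.21 for venous genes, and Vcam1 measured -4.60, Cldn5 -0.79, Nos3 -0.56, Ocln -0.35 and Slco1a4 -0.054. Without mural RNA the medians were 0.60 for junctions, 0.74 for carriers, 0.52 for receptors and 1.10 for glucocorticoid targets, and Vcam1 measured -1.27, Cldn5 -0.20, Nr2f2 -0.020 and Ly6c1 0.024. Under 1% neuronal UMIs the medians were 0.19 for carriers and -0.0061 for cholesterol synthesis, and Slco1a4 and Slc2a1 measured -0.13 and Cldn5 -0.072. Under the stricter rule the carriers' median was 0.26, and Slc2a1, Slco1a4 and Cldn5 measured -0.055, -0.044 and -0.034. With equal weight per nucleus Vcam1 measured -0.33 and Cldn5 -0.20, and thinned to 1000 UMIs Cldn5 measured -0.18. At 3 UMIs the arterial shares were 26.9% and 43.5% and the venous shares 22.9% and 50%, and thinned to 1000 UMIs they were 16.03% and 23.2%, and 12.2% and 28.0%. The cause of these shifts was not tested. No paired analysis was possible because each diet has 1 library, so leaving out a replicate could not be tried.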

Other observations

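Genes outside the lists also measured higher in the members than in the other nuclei. The 15 with the highest ratio over the other nuclei in both libraries and at least 100 UMIs were AW112010, Ly6a, Wfdc1, 4930578C19Rik, Ndufa4l2, Cd93, She, Srarp, Slfn5, Tbx3, Tinagl1, Nes, Srgn, C130074G19Rik and Zfp366. Members with mural RNA supplied 49.9% of the summed NFD UMIs and 63.9% of the summed HFD UMIs. In the other nuclei the mural list summed to only 28.1 and 25.8 CPM. A high ratio over the other nuclei therefore does not separate endothelial from mural genes. Ly6a, the stem cell antigen Sca-1, gave 957 UMIs in 127 NFD members and 530 in 67 HFD members. Its log2 HFD to NFD ratio was -0.34 (-0.49 to -0.18), the same sign as its relative Ly6c1. Nes, the intermediate filament nestin, gave 116 and 107 UMIs at 0.40 (0.01 to 0.79).

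Several of these genes measured higher in HFD members. Cd93, a lectin-like receptor of endothelium, gave 51 UMIs in 30 NFD members and 94 in 36 HFD members, at 1.40 (0.89 to 1.92) and 1.08 in the members under 1% neuronal UMIs. Zfp366, a transcriptional corepressor, gave 192 and 283 UMIs at 1.08 (0.81 to 1.35) and 0.84, and the transcription factor Tbx3 gave 60 and 87 at 1.05 (0.56 to 1.55) and 0.65. Slfn5, an interferon-inducible gene, gave 120 and 160 at 0.93 (0.58 to 1.29) and 0.75. Ndufa4l2, a subunit induced by low oxygen, measured -0.50 (-1.11 to 0.08), and Wfdc1, She, Srarp, Srgn, Tinagl1 and AW112010 measured between -0.09 and 0.21 with intervals that included 0.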
